A study of Sus scrofa with 9 samples.

Results

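Transcript levels of 3 pig hearts procured without normothermic regional perfusion (NRP), the in situ return of warm oxygenated blood flow after circulatory arrest, were set against those of all 6 hearts that received it. The genes described are those in which all 3 hearts without NRP lay on the same side of all 6 hearts with NRP, and 277 of the 11782 genes tested met this rule. All 9 donors were female Yorkshire pigs of 4 to 6 months in a model of donation after circulatory death, and every heart went through 15 min of warm ischemia, cold preservation and 2 h of bench-top normothermic machine perfusion before its apex was biopsied. The NRP hearts had 60 min of NRP and then either static cold storage for 2 h at 4 °C (NRP + SCS 2 h, pigs 24, 25 and 29) or hypothermic oxygenated perfusion for 24 h at 8 °C (NRP + HOPE 24 h, pigs 27, 28 and 30). The hearts without NRP were procured directly and had HOPE for 2 h at 8 °C (No NRP + HOPE 2 h, pigs 31, 33 and 34). No group combined NRP with HOPE for 2 h, so NRP and the preservation that followed it cannot be told apart in any difference below.

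Warm ischemia stops oxidative ATP production in the myocardium, and the return of oxygenated blood restores it while also exposing the tissue to oxidative and inflammatory stress. Cells meet such stress with chaperones induced by heat shock factor 1, with the NF-κB program of cytokines and adhesion molecules, and with a slowing of protein and ribosome synthesis when energy or amino acids are short. Stretch and contraction of the beating heart maintain a further set of transcripts of the Z-disc, the structure that anchors actin filaments in the sarcomere.

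The samples are labelled as cardiomyocytes, but they were bulk myocardium. Cardiomyocyte marker transcripts summed to between 42650 and 58130 TPM without NRP and between 38610 and 68630 TPM with NRP, and markers of endothelium, fibroblasts and macrophages were also present in every heart. In bulk tissue, fewer cells of a type and less RNA per cell cannot be told apart. The 13 mitochondrially encoded protein genes took 44.8% to 55.0% of all TPM without NRP and 38.2% to 55.3% with NRP. Median-of-ratios scaling factors ran from 0.728 in pig 27 to 1.33 in pig 30, so a large part of the genes shifted together in these libraries, and pig 31 (0.772) shifted the same way as pig 27. Under that scaling 714 genes (6.06%) had no overlap in place of 277, and 206 of the 277 were among them (93 higher, 113 lower).

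Of the 277 genes, 128 lay above and 149 below all NRP hearts, which is 2.35% of the genes tested (1.09% higher, 1.26% lower). The median log2 fold change was 0.81 among the higher genes and -0.84 among the lower genes, against -0.02 over all genes tested. Because the rule uses the same values, these medians describe the selection and test nothing. For a single gene without overlap the two-sided exact permutation p over the 84 divisions of the hearts is 0.0238, the smallest this design can give. With TPM as deposited, the 2.35% of genes that met the rule is no larger a share than that p, so the count of 277 is by itself no sign of a difference between the groups. The share depended on the scaling, with 6.06% after median-of-ratios scaling, 5.97% after quantile normalization and 4.03% with the mitochondrially encoded genes left out. Genes of the same libraries are not independent, so none of these shares is a test. Across all genes limma called 6 (0.0509%), meaning that the adjusted p was under 0.05 and the absolute log2 fold change over 1, of which 3 were higher and 3 lower, and all 6 were without overlap. With that fold threshold and no adjustment of p, 131 genes were higher and 164 lower (1.11% and 1.39%). The p-values measure the spread among these few animals.

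**Figure D1:**
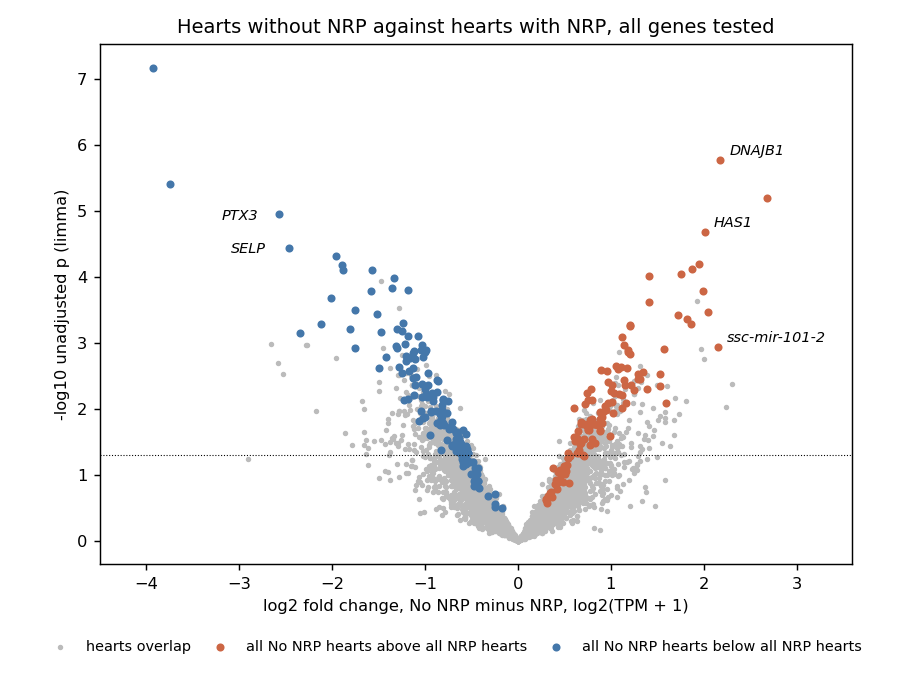
Log2 fold change of No NRP over NRP hearts on the log2(TPM + 1) scale (x axis) against -log10 of the unadjusted limma p (y axis) for 11782 genes; the dotted line marks the unadjusted threshold of 0.05. Grey points are genes whose hearts overlap, and the 128 orange and 149 blue points are genes without overlap; the 2 unlabelled blue points farthest left are genes without a symbol.

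DNAJB1 encodes an Hsp40 co-chaperone of Hsp70 and is a classical target of heat shock factor 1. It was present at 310.2, 123 and 189 TPM in pigs 31, 33 and 34, and at 38.02 to 45.5 TPM with a median of 43.01 in the NRP hearts. Every heart without NRP was far above the 6 NRP hearts, whose values differed little from each other, and the gene rose without NRP (log2 fold change 2.18, SE 0.27, limma adjusted p = 0.0102). DNAJB1 was called under each of the 20 alternative fits.

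HAS1, a plasma membrane synthase of the matrix glycosaminoglycan hyaluronan, was at 90.3, 145 and 61.98 TPM without NRP. The NRP + SCS 2 h hearts had 16.4, 9.88 and 14.6 TPM and the NRP + HOPE 24 h hearts 24.1, 43.5 and 48.97 TPM, so the 3 groups did not overlap and HOPE 24 h lay between the other groups. HAS1 rose against all NRP hearts (log2 fold change 2.01, SE 0.32, limma adjusted p = 0.042), with a log2 fold change of 2.72 against SCS 2 h and 1.30 against HOPE 24 h. It was called in 7 of 20 alternative fits, where its adjusted p ranged from 0.00694 to 0.200, and the call was lost when any heart except pig 34 was left out.

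PTX3, the long pentraxin that is secreted at sites of inflammation, binds microbes and complement and takes part in the hyaluronan matrix, was at 10.2, 22.9 and 10.6 TPM without NRP. The NRP hearts ranged from 35.4 to 125 TPM with a median of 101, and their lowest value, in pig 29, was above all 3 hearts without NRP. PTX3 fell without NRP (log2 fold change -2.57, SE 0.38, limma adjusted p = 0.0269), with similar fold changes against SCS 2 h (-2.38) and HOPE 24 h (-2.76). It was called in 12 of 20 alternative fits (adjusted p 0.00194 to 0.122), and the call was lost without pig 24, 25, 28, 30, 31 or 34 in turn.

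**Figure D2:**
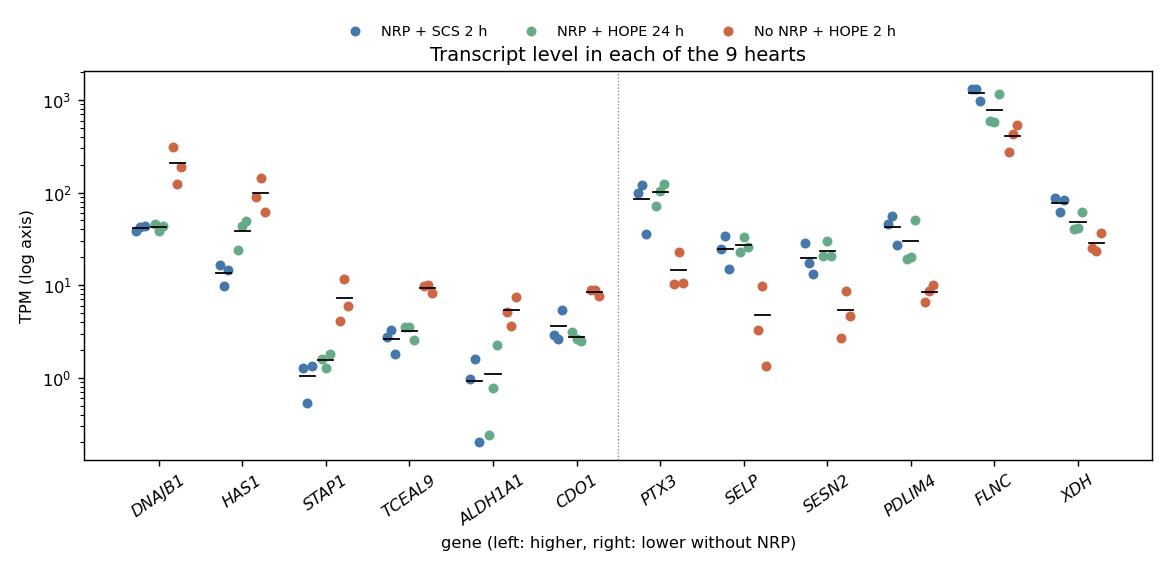
TPM on a log axis for 12 genes without overlap, with 1 dot per heart, colored by group, and a bar at each group's mean. The 6 genes on the left were higher and the 6 on the right lower in every heart without NRP; DNAJB1 ranged from 122.8 to 310.2 TPM without NRP and from 38.0 to 45.5 TPM with it.

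Among the other genes with a symbol that lay above all NRP hearts, none passed the adjusted threshold, and their values are given as a description. STAP1, an adaptor protein of immune cell signaling, was at 4.08, 11.5 and 5.97 TPM without NRP against 0.527 to 1.81 TPM with a median of 1.3 with NRP (log2 fold change 1.75, limma adjusted p = 0.077). TCEAL9, a small nuclear protein of the transcription elongation factor A-like family, was at 9.8, 10.01 and 8.16 TPM against 1.82 to 3.54 TPM with a median of 3.01 (log2 fold change 1.42, limma adjusted p = 0.0771). Both were low in every NRP heart, and the 3 hearts without NRP were well separated from them.

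ALDH1A1, which makes retinoic acid from retinaldehyde, was at 5.18, 3.61 and 7.42 TPM without NRP and 0.201 to 2.23 TPM with NRP (log2 fold change 1.72, limma adjusted p = 0.154). CDO1, the cysteine dioxygenase that starts taurine synthesis, was at 8.9, 8.77 and 7.62 TPM against 2.46 to 5.34 TPM with a median of 2.77 (log2 fold change 1.20, limma adjusted p = 0.191). CASP1, the inflammasome protease that activates interleukin 1 beta, was at 1.9, 3.25 and 10.8 TPM against 0.245 to 1.67 TPM (log2 fold change 1.57, limma adjusted p = 0.254), and pig 31 was only just above the highest NRP heart. These 3 genes were at low levels in all hearts.

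The guanine nucleotide exchange factors FGD2, which acts on Cdc42, and ARHGEF25, which acts on RhoA, ranged from 3.38 to 7.03 TPM and 6.15 to 13.3 TPM without NRP, against 0.846 to 2.1 TPM and 3.27 to 4.95 TPM with NRP. NADSYN1, the last enzyme of NAD synthesis from nicotinic acid, ranged from 2.36 to 3.78 TPM against 0.523 to 1.69 TPM. Their log2 fold changes were 1.20, 1.06 and 1.11 (limma adjusted p = 0.27, 0.34 and 0.34). The annotated miRNA precursor ssc-mir-101-2 was at 7.37, 5.13 and 5.75 TPM without NRP, and was listed at 0 in 4 of the NRP hearts and at 1.52 and 5.11 TPM in pigs 25 and 27. The libraries were made from polyadenylated RNA, and under median-of-ratios scaling the hearts overlapped in this gene.

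Of the genes with a symbol below all NRP hearts, SELP came next after PTX3. It encodes P-selectin, the adhesion molecule that activated endothelium and platelets present to leukocytes, and was at 3.25, 9.7 and 1.34 TPM without NRP against 15.1 to 34.4 TPM with a median of 25.4 with NRP. The highest heart without NRP was below the lowest NRP heart, but the gene did not pass the adjusted threshold (log2 fold change -2.47, SE 0.41, limma adjusted p = 0.0611), and it was called in 6 of 20 alternative fits. Platelet marker transcripts summed to between 4.24 and 6.49 TPM without NRP and between 3.76 and 6.17 TPM with NRP.

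SESN2 encodes Sestrin 2, a stress-inducible leucine sensor that restrains the growth kinase complex mTORC1. It was at 2.71, 8.63 and 4.69 TPM without NRP against 13.3 to 29.9 TPM with a median of 20.5 with NRP (log2 fold change -1.90, SE 0.34, limma adjusted p = 0.0732). XDH, which degrades purines to uric acid and as an oxidase yields superoxide during reperfusion, was at 25.3, 23.6 and 36.4 TPM against 40.7 to 87.1 TPM with a median of 61.4 (log2 fold change -1.08, limma adjusted p = 0.226). Its values were lowest without NRP, intermediate after HOPE 24 h (40.7, 41.98 and 61.1 TPM) and highest after SCS 2 h (87.1, 61.6 and 83.4 TPM), with pigs 25 and 30 almost equal.

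PDLIM4 and FLNC belong to the actin cytoskeleton of muscle. PDLIM4, an alpha-actinin binding protein, was at 6.61, 8.6 and 10.1 TPM without NRP against 19.3 to 56.3 TPM with a median of 36.4 with NRP (log2 fold change -1.89, SE 0.34, limma adjusted p = 0.0732). FLNC, the filamin that crosslinks actin at the Z-disc and is mutated in cardiomyopathies, was at 272, 425 and 534 TPM without NRP, 1318, 1315 and 976 TPM after SCS 2 h and 588, 582 and 1156 TPM after HOPE 24 h (log2 fold change -1.24, limma adjusted p = 0.187). It was the most abundant of the leading genes, and its highest heart without NRP was close to the lowest NRP heart.

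LPIN1, a phosphatidate phosphatase that also coactivates fatty acid oxidation genes, was at 6.2, 8.5 and 13.6 TPM against 17.96 to 55.2 TPM with a median of 34.8 (log2 fold change -1.75, limma adjusted p = 0.146). ALDH1A3, like ALDH1A1 a maker of retinoic acid, was at 12.8, 9.94 and 10.3 TPM against 22.9 to 30.0 TPM with a median of 26.3 (log2 fold change -1.18, limma adjusted p = 0.0937). The pair of retinaldehyde dehydrogenases thus lay on opposite sides of the NRP hearts, with ALDH1A3 at the higher TPM in every heart. ARHGEF2, a RhoA activator bound to microtubules, was at 29.6, 41.3 and 25.6 TPM against 47.9 to 122 TPM with a median of 79.4 (log2 fold change -1.31, limma adjusted p = 0.197).

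The remaining leading lower genes were KIAA1211L (0.989 to 2.76 TPM without NRP against 5.07 to 17.9 TPM with NRP), ANKH, which exports ATP and pyrophosphate (3.67 to 4.15 TPM against 6.73 to 21.3 TPM), and the arrestin family member ARRDC4 (16.7 to 23.6 TPM against 29.5 to 73.2 TPM). Their log2 fold changes were -1.81, -1.47 and -1.18 (limma adjusted p = 0.197, 0.207 and 0.226). ANKH was the tightest of the 3 without NRP, and none passed the adjusted threshold.

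The other 3 called genes carry no symbol in the files. ENSSSCG00000006286 was at 1.67, 3.38 and 0.568 TPM without NRP against 24.2 to 59.04 TPM with a median of 39.1 with NRP (log2 fold change -3.92, SE 0.37, limma adjusted p = 0.000803), the lowest adjusted p of all genes tested, and it was called in all 20 alternative fits. ENSSSCG00000017482 was at 0.39, 4.44 and 0.305 TPM against 6.44 to 58.1 TPM with a median of 36.4 (log2 fold change -3.75, SE 0.51, limma adjusted p = 0.0154; called in 15 of 20 alternative fits, not without pig 30 or pig 31). ENSSSCG00000023827 was at 6.58, 13.7 and 5.13 TPM without NRP, was listed at 0 in 4 NRP hearts and reached 1.86 TPM in the highest (log2 fold change 2.68, SE 0.38, limma adjusted p = 0.019; called in 11 of 20 alternative fits, of which 1, with a mean of at least 5 TPM, left it out, and not called without pig 27, 28, 30, 31 or 33 in turn). Of the 277 genes, 89 had no symbol and 10 only an Rfam accession, while 80 of the higher and 98 of the lower genes had a gene symbol.

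The NRP hearts came from 2 preservation arms, and the difference between these arms in the 277 genes does not use the hearts without NRP. NRP + HOPE 24 h against NRP + SCS 2 h reached an unadjusted limma p under 0.05 in 13 of the 277 (4.69%), against 585 of all genes tested (4.97%), and in 0 after adjustment. Genes that differ widely between the NRP arms have less room to meet the rule, so a low share is built into the selection. Among the 149 lower genes HOPE 24 h had the lower mean in 86 (57.7%), against 64.1% of all genes tested. Among the 128 higher genes it had the higher mean in 60 (46.9%), against 35.9% of all genes tested. HAS1 was the exception among the called genes with a symbol, with HOPE 24 h above SCS 2 h by 1.42 (unadjusted p = 0.00185, limma adjusted p = 0.386).

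**Figure D3:**
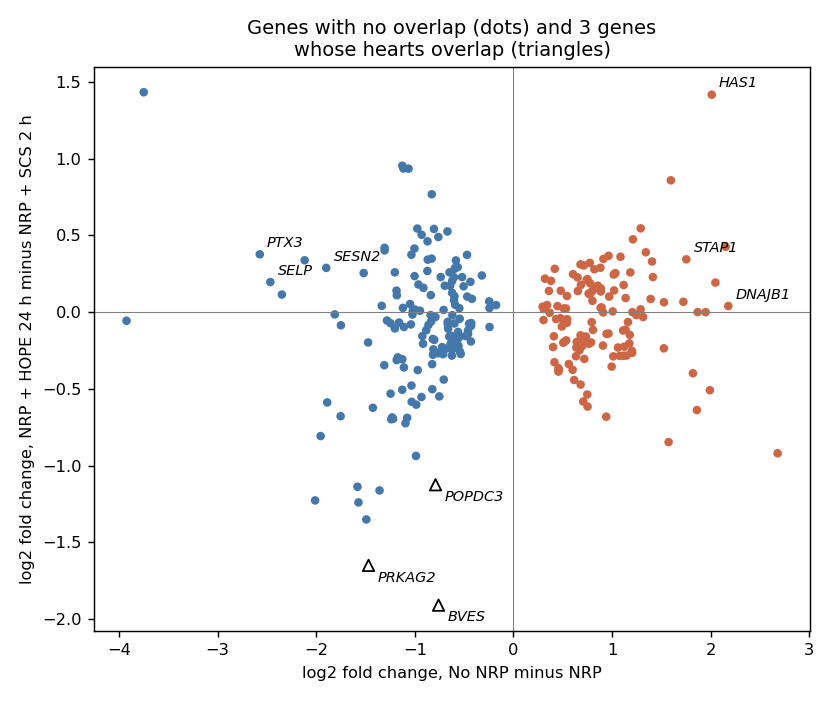
Log2 fold change of No NRP over NRP hearts (x axis) against that of NRP + HOPE 24 h over NRP + SCS 2 h (y axis) for the 277 genes without overlap, orange where higher and blue where lower without NRP. Open triangles are BVES, POPDC3 and PRKAG2, whose hearts overlap and which were lower after HOPE 24 h than after SCS 2 h.

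Other genes had a large average difference from the NRP hearts that lay in 1 arm. BVES, a membrane protein that binds cyclic AMP and is needed for pacemaking under stress, was at 5.71, 5.65 and 10.6 TPM without NRP and 6.18, 6.05 and 5.85 TPM after HOPE 24 h, but at 33.5, 25.7 and 18.9 TPM after SCS 2 h. Its log2 fold change without NRP was -1.71 against SCS 2 h and 0.19 against HOPE 24 h. Its relative POPDC3 was at 19.5, 21.01 and 28.8 TPM without NRP, 22.7, 28.5 and 29.9 TPM after HOPE 24 h and 71.8, 54.2 and 54.8 TPM after SCS 2 h. PRKAG2, the regulatory gamma 2 subunit of AMP-activated kinase, was at 59.3, 56.6 and 40.8 TPM, 52.1, 80.99 and 127 TPM and 238, 239 and 297 TPM in the same order. In these 3 genes the 6 hearts preserved by HOPE were below the 3 preserved by static cold storage, with or without NRP. IER3, an NF-κB target that protects cells from apoptosis, stood apart in the HOPE 24 h hearts instead (360.3, 709.8 and 596 TPM), with 136, 209.8 and 139 TPM without NRP and 181, 236 and 151 TPM after SCS 2 h.

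Lists of stress genes had medians near that of all genes tested (-0.02). Of 19 heat shock genes tested, 1 (DNAJB1) was called and 1 more, HSPH1, had an unadjusted p under 0.05 (log2 fold change 0.63, 89.8, 46.2 and 53.4 TPM without NRP against 30.2 to 61.4 TPM with NRP). Over all genes tested 6.92% had such a p, 2.91% with a higher mean. The median of the list was -0.04, and DNAJA1, another Hsp40 protein, had a log2 fold change of 0.40 (limma adjusted p = 0.766). The medians were -0.06 for 25 targets of hypoxia-inducible factors, -0.08 for 17 genes of NRF2 and redox defence, -0.06 for 21 genes of the unfolded protein and integrated stress response, 0.06 for 19 genes of p53 and cell death and 0.10 for 21 immediate early genes. When each heart was left out in turn, they ran from -0.11 to 0.25, -0.18 to 0.01, -0.24 to 0.05, -0.06 to 0.16 and -0.06 to 0.31 in this order. The median of all genes tested ran from -0.12 to 0.12. At an unadjusted p under 0.05, 2 of the p53 and cell death genes were higher and 1 lower, 1 of the immediate early genes was higher and 1 lower, and 1 gene in each of the other 3 lists was lower. In the NRF2 and unfolded protein lists this was the same gene, SESN2, which stood in both. SESN2 was also the 1 gene of either list below all NRP hearts (1.26% of all genes tested). In the unfolded protein list 4 were after median-of-ratios scaling, which also raised the share of all genes tested to 3.29%. GADD45B, a stress sensor that activates p38 signaling, was the immediate early gene without overlap (1.09% of all genes tested lay above all NRP hearts), at 496, 585 and 699 TPM without NRP against 306 to 472 TPM with a median of 397 with NRP (log2 fold change 0.60, limma adjusted p = 0.544). FOS had 164, 201 and 562 TPM, and its hearts overlapped with those with NRP (99.6 to 243 TPM).

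**Figure D4:**
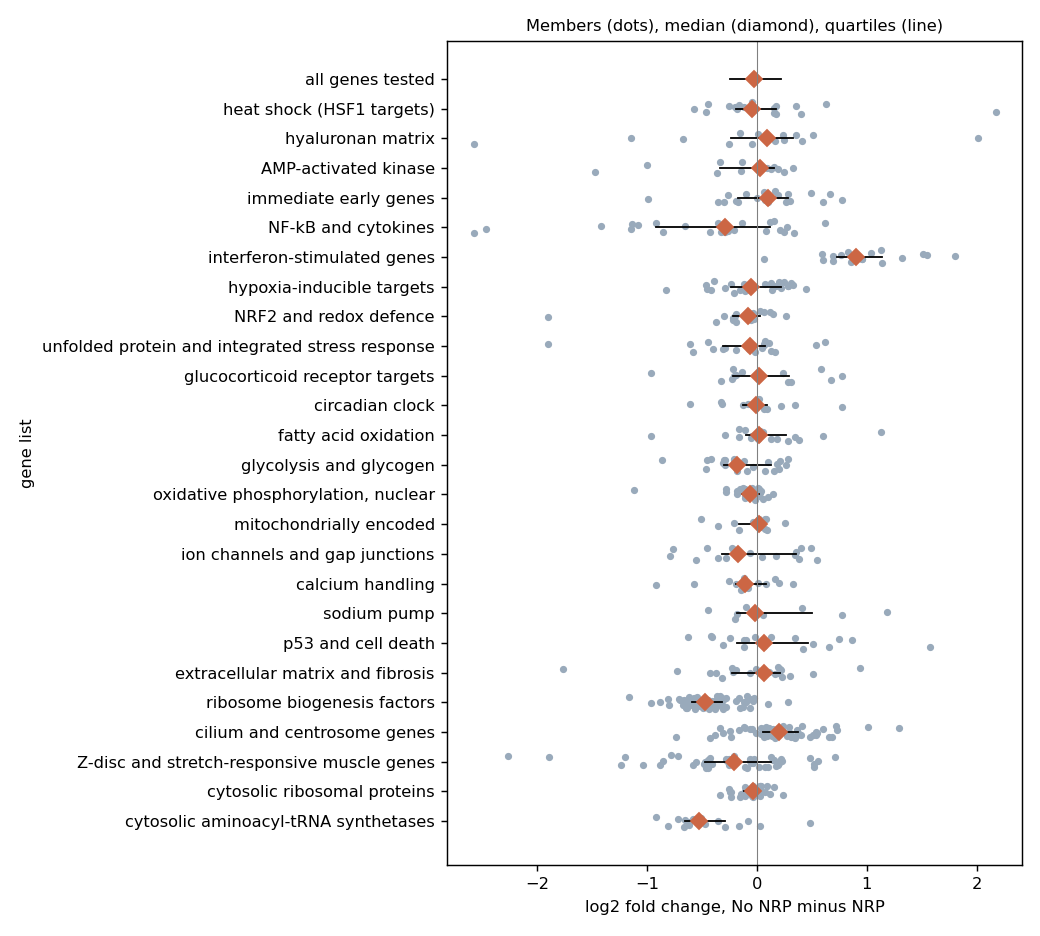
Log2 fold change of No NRP over NRP hearts for the members of 25 gene lists (grey dots, 1 per gene; no dots are drawn for all genes), with the median (orange diamond) and the quartiles (line). The interferon-stimulated genes lie to the right (median 0.90), and ribosome biogenesis factors (-0.47) and cytosolic aminoacyl-tRNA synthetases (-0.52) to the left of all genes tested (-0.02).

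Of 25 NF-κB targets and cytokines tested, 8 had a lower mean at an unadjusted p under 0.05 and 0 a higher one, and none was called. Over all genes tested the shares were 4.01% lower and 2.91% higher. The list median was -0.29 against all NRP hearts, 0.05 against SCS 2 h and -0.82 against HOPE 24 h. Without pig 31 it was -0.10. The mean of the list, relative to that of the NRP hearts, was -0.91, -0.03 and -0.56 in pigs 31, 33 and 34, and the NRP hearts ranged from -0.68 to 0.78, so that pig 31 alone lay below them. After median-of-ratios scaling pig 31 (-0.59) was inside their range (-0.74 to 0.92) and pig 34 (-0.75) just below it, and 3 members were below all NRP hearts (3.29% of all genes tested). With TPM as deposited, SELP was its single member without overlap (1.26% of all genes tested lay below all NRP hearts). CSF3, the granulocyte growth factor, was listed at 0 in pigs 31 and 34 and at 0.817 TPM in pig 33, against 0.728 to 31.5 TPM with a median of 4.57 with NRP, and the lowest NRP heart fell inside the range without NRP (log2 fold change -2.58, limma adjusted p = 0.321). VCAM1, an endothelial adhesion molecule for leukocytes, was at 32.9, 62.05 and 124 TPM against 114 to 184 TPM (log2 fold change -1.14, limma adjusted p = 0.403). TNIP1, a ubiquitin-binding inhibitor of NF-κB, and OLR1, the endothelial receptor for oxidized lipoprotein, were outside the lists and are named after their values were seen, and both lay below all NRP hearts (49.5 to 78.6 TPM against 100.3 to 204 TPM, and 19.9 to 31.04 TPM against 33.3 to 62.7 TPM).

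Interferon-stimulated genes, the antiviral program that cells switch on in response to interferon, were highest in pig 34 and next highest in pig 33. All 19 members tested had a higher mean without NRP, 5 of them at an unadjusted p under 0.05 (2.91% of all genes tested). With TPM as deposited none was without overlap (2.35% of all genes tested), and none was called. After median-of-ratios scaling 8 were higher at such a p, against 6.09% of all genes tested. Under that scaling 1, USP18, lay above all NRP hearts, against 2.77% of all genes tested. The list median was 0.90, with 0.07 without pig 34 and 1.67 without pig 31. The interferon-induced genes MX1 (29.6, 77.2 and 334 TPM without NRP, 22.4 to 42.4 TPM with NRP), USP18 (19.7, 26.3 and 117 TPM, 7.77 to 20.2 TPM) and ISG20 (4.3, 9.98 and 53.2 TPM, 1.22 to 7.58 TPM) were highest in pig 34. In pig 31 all 3 were inside the range of the NRP hearts, and in pig 33 all 3 were above it. The list mean, relative to that of the NRP hearts, was -0.53, 0.74 and 2.68 in pigs 31, 33 and 34. The NRP hearts ranged from -0.60 to 0.41. After median-of-ratios scaling the values were -0.18, 0.665 and 2.47, against -0.39 to 0.39. Pigs 33 and 34 were thus above the NRP hearts with either scaling.

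The list of factors that transcribe, cut and fold ribosomal RNA was written after some of its members had been seen among the 277, so its count is no independent evidence. Of 71 tested, 69 had a lower mean without NRP, 23 had an unadjusted p under 0.05, 9 were without overlap and none was called. All 23 and all 9 were lower, and the shares of all genes tested were 4.01% and 1.26%. Leaving out those 9, 60 of the other 62 had a lower mean, with a median of -0.43. Of all genes tested, 52.5% had a lower mean. The 62 come from the same libraries as those 9, so their count is no independent evidence either. The median of the whole list was -0.47, with -0.60 against SCS 2 h and -0.35 against HOPE 24 h, and it ran from -0.64 to -0.37 when each heart was left out in turn.

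Named after their values were seen, WDR12, which matures the large ribosomal subunit, was at 6.52, 4.99 and 3.28 TPM without NRP against 7.41 to 15.2 TPM with a median of 12.6 with NRP (log2 fold change -1.16, limma adjusted p = 0.279). EXOSC5, a subunit of the RNA exosome, was at 4.54, 6.54 and 5.14 TPM against 8.003 to 13.4 TPM with a median of 10.2 (log2 fold change -0.81, limma adjusted p = 0.493). The other members without overlap were DDX31, SHQ1, RRP1B, PWP2, RBM19, EFL1 and DNAJC21, with log2 fold changes from -0.67 (SHQ1) to -0.43 (DNAJC21). Abundant nucleolar proteins had smaller differences than WDR12 and EXOSC5 and overlapped, with log2 fold changes of -0.50 for nucleolin (NCL, 259, 372 and 257 TPM against 306 to 470.2 TPM), -0.56 for nucleophosmin (NPM1) and -0.54 for fibrillarin (FBL). The mean of the list in pigs 31, 33 and 34 was 0.61, 0.11 and 0.61 log2 units below the mean of the NRP hearts, which ranged from -0.46 in pig 27 to 0.35 in pig 24. Pig 33 was inside the range of the NRP hearts, and pig 34 was the lowest (-0.80) after median-of-ratios scaling, with pigs 31 and 33 at -0.27 and -0.18 and the NRP hearts from -0.26 to 0.27.

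Of 17 cytosolic aminoacyl-tRNA synthetases, which charge tRNA with amino acids, 15 had a lower mean (median -0.52, 6 at an unadjusted p under 0.05, against 4.01% of all genes tested). The list mean in pigs 31, 33 and 34 was -0.69, -0.08 and -0.55 relative to the mean of the NRP hearts, which ranged from -0.51 to 0.56, so that pig 33 was well inside their range and pig 34 just below it. After median-of-ratios scaling pig 34 was at -0.74, and pig 31 (-0.33) was at the lower edge of the NRP hearts (-0.33 to 0.48). This list, too, was written after values were seen, and EPRS was its single member without overlap, against 1.26% of all genes tested (13.8, 21.6 and 16.9 TPM against 22.6 to 37.5 TPM with a median of 25.6, log2 fold change -0.65, limma adjusted p = 0.658). The 30 genes of cytosolic ribosomal proteins had a median of -0.03, and none reached an unadjusted p under 0.05 (limma). RPL10A was the single member below all NRP hearts, at 731.8, 796 and 695.9 TPM against 810.1 to 1010 TPM (log2 fold change -0.24), and no member was without overlap after median-of-ratios scaling.

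**Figure D5:**
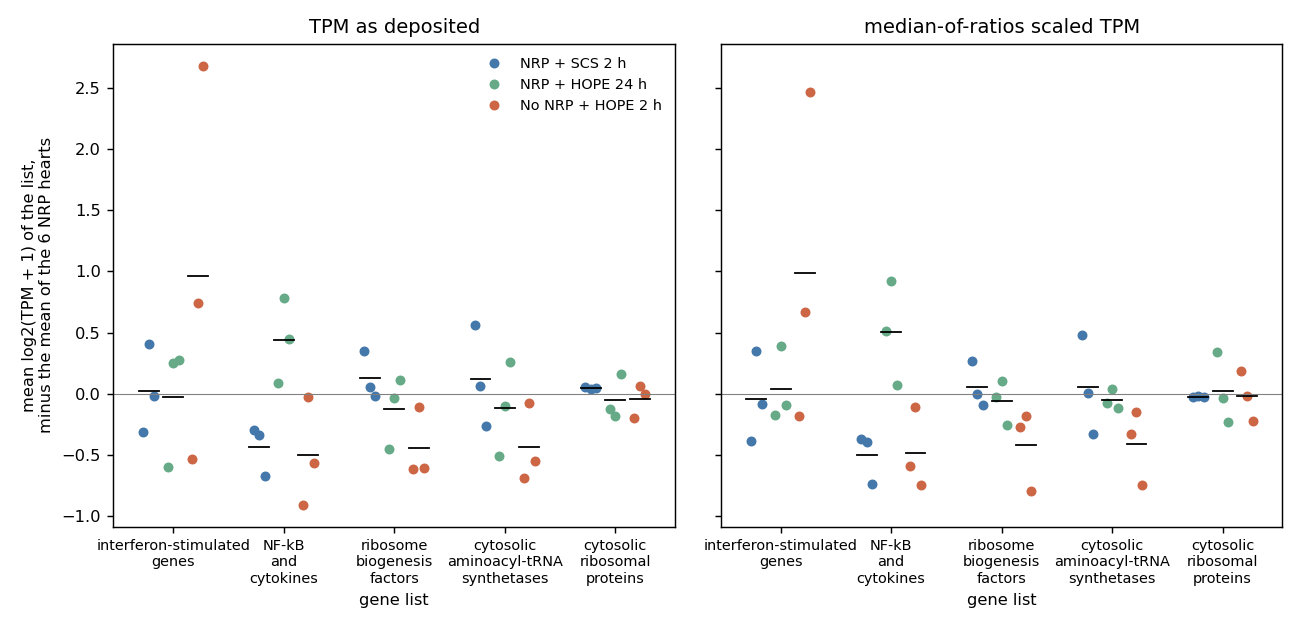
Mean log2(TPM + 1) of 5 gene lists in each heart, minus the mean of the 6 NRP hearts, from TPM as deposited (left) and after median-of-ratios scaling (right), with a bar at each group's mean. Pig 34 is alone above 2 for interferon-stimulated genes, and for ribosome biogenesis factors the hearts without NRP lie at -0.61, -0.11 and -0.61 on the left.

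FLNC and PDLIM4 stood in a list of Z-disc and stretch-responsive muscle genes. In this list, also written after values were seen, 32 of 48 had a lower mean (median -0.21), 7 were lower at an unadjusted p under 0.05 and 4 were below all NRP hearts, against 4.01% and 1.26% of all genes tested. The median was -0.06 without pig 31, -0.11 without pig 30, -0.31 without pig 27 and -0.32 without pig 34. The list mean was -0.56, -0.27 and 0.01 in pigs 31, 33 and 34, and all 3 were inside the range of the NRP hearts (-0.58 to 0.46). This turned with the scaling, since after median-of-ratios scaling they were at -0.20, -0.34 and -0.19 and below every NRP heart (-0.15 to 0.08). Then 12 members were lower and 4 higher at an unadjusted p, against 7.02% and 6.09% of all genes tested. Without overlap, 7 were below and 2 above all NRP hearts, against 3.29% and 2.77%. MYO18B, an unconventional myosin needed for sarcomere assembly, was at 7.99, 12.1 and 20.1 TPM without NRP against 20.98 to 38.97 TPM with a median of 30.6 with NRP (log2 fold change -1.20, limma adjusted p = 0.274). TMOD1, which caps the pointed end of actin filaments, was at 5.31, 4.42 and 5.26 TPM against 5.37 to 16.8 TPM with a median of 12.7 (log2 fold change -1.03, limma adjusted p = 0.403); pig 27 was just above pig 31. The stretch-induced titin-binding protein ANKRD1 was at 1589, 2285 and 3070 TPM against 2557 to 5009 TPM with a median of 4632 and overlapped in 1 pair of hearts (log2 fold change -0.88, limma adjusted p = 0.363). ANKRD2 was at 2.57, 31.97 and 8.6 TPM against 24.6 to 92.03 TPM, with pigs 31 and 34 low and pig 33 inside the NRP range (log2 fold change -2.27, limma adjusted p = 0.254). FHL3, a LIM domain protein, lay on the other side, at 2.51, 2.92 and 2.66 TPM against 0.142 to 2.36 TPM.

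Genes of cilia and centrosomes made up another list written after values were seen. Of 60 tested, 47 had a higher mean (median 0.20), 9 lay above all NRP hearts, and 7 were higher and 1 lower at an unadjusted p under 0.05. The shares of all genes tested were 1.09% above without overlap, and 2.91% higher and 4.01% lower at an unadjusted p. The median was 0.11 without pig 34 and 0.33 without pig 31. The list mean was -0.01, 0.21 and 0.43 in pigs 31, 33 and 34 against -0.26 to 0.21 in the NRP hearts, and pig 34 alone was above their range. After median-of-ratios scaling these hearts were at 0.27, 0.15 and 0.26 against at most 0.16, so that pigs 31 and 34 were both above it. CETN3, a centrin of the centriole, was at 21.4, 22.04 and 25.5 TPM without NRP against 11.2 to 16.8 TPM with a median of 13.6 with NRP (log2 fold change 0.72, limma adjusted p = 0.515). BBS4, a subunit of the cargo complex of the cilium, was at 9.49, 11.7 and 14.7 TPM against 5.59 to 9.37 TPM with a median of 6.33 (log2 fold change 0.68, limma adjusted p = 0.616), and the ciliary dynein factor TTC25 was at 1.48, 2.05 and 5.78 TPM against 0.0638 to 1.18 TPM. The other members without overlap were CEP112, TUBD1, CEP19, IFT81, CFAP36 and MAK, with log2 fold changes from 0.48 (IFT81) to 1.01 (TUBD1). BBS5, from the same complex as BBS4, had the opposite sign (log2 fold change -0.74) and overlapped.

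Few genes were without overlap in the metabolic and electrical lists, as among all genes tested (2.35%, and 1.26% below all NRP hearts). PRKAB2, the beta 2 subunit of AMP-activated kinase, was at 2.07, 1.99 and 2.32 TPM without NRP against 2.322 to 10.01 TPM with a median of 5.28 with NRP (log2 fold change -0.9999, limma adjusted p = 0.584). It was only just without overlap, and was the only one of 13 genes of that kinase and its partners. UQCRC2, a core protein of respiratory complex III, was at 26.2, 23.2 and 26.1 TPM against 26.9, 81.6 and 28.7 TPM after SCS 2 h and 60.9, 65.03 and 116 TPM after HOPE 24 h (log2 fold change -1.12, limma adjusted p = 0.468). The other 23 nuclear genes of oxidative phosphorylation overlapped, the list median was -0.06, and both PRKAB2 and UQCRC2 overlapped under median-of-ratios scaling. PDK4, a mitochondrial kinase that inhibits pyruvate dehydrogenase, had 208, 102 and 175 TPM against 198 to 379 TPM (log2 fold change -0.96, limma adjusted p = 0.364), and PLIN5, which ties lipid droplets to mitochondria, had 3.04, 2.56 and 5.31 TPM against 0.377 to 2.76 TPM (log2 fold change 1.13, limma adjusted p = 0.487).

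The list medians were 0.02 for 18 genes of fatty acid oxidation, -0.18 for 23 of glycolysis and glycogen, 0.02 for the 13 mitochondrially encoded genes, -0.17 for 19 ion channel and gap junction genes, -0.11 for 13 of calcium handling and -0.02 for 8 of the sodium pump. When each heart was left out in turn, they ran from -0.19 to 0.21 for fatty acid oxidation and from -0.29 to -0.009 for glycolysis. The range was -0.22 to 0.04 for ion channels, -0.30 to 0.09 for calcium handling and -0.16 to 0.16 for the sodium pump. Circadian clock genes (13, median -0.003) and glucocorticoid receptor targets (15, median 0.02) had none without overlap, against 2.35% of all genes tested, which for lists this short is under 1 gene. After median-of-ratios scaling 1 glucocorticoid target was above all NRP hearts (2.77% of all genes tested). PER1, a clock gene that glucocorticoids induce, had 85.9, 76.4 and 151 TPM without NRP, 91.3, 63.5 and 88.3 TPM after SCS 2 h and 50.6, 32.6 and 43.7 TPM after HOPE 24 h, so that it differed from HOPE 24 h (1.24) more than from SCS 2 h (0.32).

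Among matrix genes, 14 of the hyaluronan matrix had a median of 0.09 and held HAS1 and PTX3 on opposite sides. The 21 genes of extracellular matrix and fibrosis had a median of 0.07 and none without overlap (2.35% of all genes tested), and 1 was below all NRP hearts after median-of-ratios scaling (3.29% of all genes tested). TNC, the matrix protein tenascin C of injured myocardium, was at 0.567, 6.04 and 1.38 TPM against 4.47 to 14.4 TPM with a median of 10.6 (log2 fold change -1.77, limma adjusted p = 0.254), and pig 33 was inside the range of the NRP hearts. ADAMTS9, a protease that cleaves hyaluronan-binding proteoglycans, was at 16.8, 32.3 and 14.8 TPM against 27.6 to 58.3 TPM (log2 fold change -1.15, limma adjusted p = 0.363), and elastin (ELN) was at 31.9, 71.8 and 28.1 TPM against 9.01 to 51.04 TPM (log2 fold change 0.94, limma adjusted p = 0.715). SMAD3, which carries the transforming growth factor beta signal to the nucleus and is named after its values were seen, lay below all NRP hearts (11.1 to 20.1 TPM against 20.7 to 78.1 TPM), while its ligand TGFB1 overlapped (35.6 to 134 TPM against 98.6 to 152 TPM).

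Marker genes of single cell types had 1 member without overlap in each of 3 lists, against 1.09% of all genes tested above and 1.26% below all NRP hearts. ACTA2, the smooth muscle actin, was at 71.95, 72.9 and 88.1 TPM without NRP against 15.8 to 55.9 TPM with a median of 44.2 with NRP (log2 fold change 0.94, limma adjusted p = 0.523). MYH11, a defining smooth muscle marker, was listed at 0 in every heart, and the 11 pericyte and smooth muscle markers listed summed to between 535.5 and 642.1 TPM against 301.7 to 601.3 TPM. Their mean log2(TPM + 1), over the 10 tested and relative to the NRP hearts, was -0.08, 0.37 and 0.50 in pigs 31, 33 and 34 against -0.69 to 0.48. After median-of-ratios scaling it was 0.28, 0.30 and 0.30, above all NRP hearts (-0.27 to 0.21). FBLN2, a fibroblast matrix protein, was at 17.2, 19.4 and 21.6 TPM against 9.45 to 17.1 TPM with a median of 15.2 (log2 fold change 0.46, limma adjusted p = 0.766), and fibroblast markers summed to between 1142 and 1243 TPM against 735.4 to 1241 TPM. S100A9, a calcium-binding protein of neutrophils and monocytes, was at 0.343, 0.199 and 0 TPM against 0.356 to 8.02 TPM with a median of 2.22 (log2 fold change -1.49, limma adjusted p = 0.34).

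The neutrophil markers summed to between 1.46 and 5.55 TPM without NRP and between 3.04 and 17.1 TPM with NRP (exact permutation p = 0.0952, adjusted p = 0.516 over 13 values), with CSF3R and MPO listed at 0 in every heart. Erythroid markers summed to between 225.9 and 378.8 TPM against 72.3 to 430.5 TPM, with the 3 SCS 2 h hearts and pig 27 low. The exact permutation p of the 12 marker sums and the mitochondrial share ran from 0.0952 to 0.952 (adjusted p from 0.516 to 0.952). The smallest p of this design, 0.0238, cannot stay under 0.05 for a single value adjusted over 13, so these tests do not show that the sums were alike. The part of these cell types in the values above was not tested.

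At the edge of the rule, PRKAB2, DNAJC21, a ribosome maturation co-chaperone, and SFMBT1, a chromatin protein, were just inside it. In this order, their highest heart without NRP and lowest NRP heart were at 2.32 and 2.322 TPM, at 28.08 and 28.12 TPM and at 2.576 and 2.581 TPM. UBR7 and MITD1 were just outside, at 3.987 against 3.984 TPM and at 6.540 against 6.551 TPM. The precursor ssc-mir-95 was listed at 0 in all hearts without NRP and in 2 NRP hearts, and was not counted.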

How the data were processed

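RNA was extracted from myocardial biopsies of 9 pig hearts taken after bench-top perfusion, and oligo(dT)-enriched libraries were sequenced as paired ends. Per the submitters' processing notes the tools were bcl2fastq 2.17, Trimmomatic 0.36, STAR 2.5.2b, featureCounts of Subread 1.5.2 and DESeq2, and the genome build is not given in the sources used here. The authors deposited TPM, transcript abundance scaled to a fixed total, for 25149 genes, each column summing to 1000000. No read counts were used, so the depth of each library is unknown and no counting interval is given. Another 9 columns of the table carry names that match no sample label and were not used. ERCC spike-in RNA was added to the samples, and 0 rows of the table name one. Symbols were taken from the table, and 754 more were added by gene identifier from a table of gene names. Rfam accessions were not taken as gene symbols.

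Genes that reached 1 TPM in 3 or more hearts were fitted with limma 3.58.1 (R 4.3.3) on log2(TPM + 1) with 1 mean per group and a trended variance, with Benjamini-Hochberg adjustment over all genes tested. The fold changes are on the log2(TPM + 1) scale, which understates the change of genes with few TPM. A gene was called when its adjusted p was under 0.05 and its absolute log2 fold change over 1. Samples were grouped from their labels, and each heart came from a separate pig. Marker sums were compared by a two-sided exact permutation test over the 84 divisions of 9 hearts into 3 and 6 (scipy 1.17.1). The fit was tested on simulated data. The genes named are, in each direction, the 12 with a symbol that were called or, after those, had no overlap, an absolute log2 fold change over 1 and the smallest p. The rule also takes in members of each gene list without overlap and the genes nearest to the edge of the no-overlap rule. It further takes in up to 3 members of each list with the smallest p (lists written after values were seen excepted). Not all of these smallest-p members are named in the text, and a gene named outside this rule is said to be. The gene set and the gene lists were chosen with earlier results of these data known, and the lists of ribosome biogenesis, cilium and centrosome, Z-disc, ribosomal protein and aminoacyl-tRNA synthetase genes were written after values were seen. The alternatives were other scalings, filters, pseudocounts and variance models, and leaving out each heart in turn. A gene that the naming rule selects is not reported here.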

Additional observations from a re-analysis of the deposited data

Results flagged for a closer look

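Of 40 values examined in the 6 NRP hearts, 3 had a heart that stood apart by Dixon's criterion, which chance alone meets in about 1 in 20 groups. For CDO1 pig 29 had 5.34 TPM, and the nearest NRP heart had 3.13 TPM. The annotated miRNA precursor ssc-mir-101-2 had 5.11 TPM in pig 27 and 1.52 TPM in the nearest NRP heart. The summed TPM of the epicardial and mesothelial markers was 295.6 in pig 30 and 144.6 in the nearest NRP heart.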

How the results depend on the processing

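The counts of genes depended on the processing. With TPM rescaled by the median of ratios, 8 genes were called higher and 11 lower, and 326 lay above and 388 below all NRP hearts without overlap. Quantile normalization gave 5 and 9 calls and 312 and 391 genes without overlap. Leaving out the mitochondrially encoded genes gave 1 call higher, with 201 and 273 genes without overlap, and limma's array weights gave 19 and 31 calls, with 247 genes higher at an unadjusted p. A minimum mean of 5 TPM gave 7 calls lower, 59 genes higher at an unadjusted p, and 49 and 96 genes without overlap. No filter gave 199 genes higher without overlap. A pseudocount of 0.1 gave 1 call higher and 252 genes lower at an unadjusted p. Chosen after seeing the data, robust variance estimation gave 6 calls lower and leaving out short RNA families gave 7. Leaving out each heart in turn, 1 to 5 genes were called higher and 1 to 11 lower, 94 to 384 were higher and 102 to 252 lower at an unadjusted p with the fold threshold, and 143 to 829 lay above and 157 to 598 below without overlap. The highest of these counts without overlap came without pig 31 and without pig 33; with fewer hearts the rule is easier to meet. None of the 1204 alternative fits of named genes changed direction, 39 gained a call and 34 lost one. The differences in marker sums changed sign in 13 fits without 1 heart, and ranged from -7383 to 354.1 TPM for cardiomyocytes, from -182.8 to 140.1 TPM for endothelium, from -43.82 to 3.10 TPM for epicardium, from -2.72 to 2.76 TPM for adipocytes and from -2.87 to 2.21 percentage points for the mitochondrial share. Without counts, the counting error of genes with few TPM could not be given.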

Other observations

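Further genes without overlap stood in none of the gene lists and were picked after their values were seen. None of them passed the adjusted threshold of limma. HPGD, which inactivates prostaglandins, was at 2.44, 2.12 and 9.12 TPM in pigs 31, 33 and 34 against 0.216 to 1.77 TPM with a median of 0.59 in the NRP hearts (log2 fold change 1.39, limma adjusted p = 0.427). NT5E, the surface enzyme that makes adenosine from AMP, was at 4.52, 2.6 and 2.3 TPM against 1.09 to 2.04 TPM with a median of 1.49 (log2 fold change 0.68, limma adjusted p = 0.692), and the p38 kinase activator MAP2K6 was at 1.66, 1.71 and 6.49 TPM against 0.181 to 1.19 TPM with a median of 0.43 (log2 fold change 1.32, limma adjusted p = 0.387). In these 3 genes every heart without NRP was above every NRP heart.

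In the other direction, ACSL4, which loads polyunsaturated fatty acids into membrane lipids, was at 27.02, 44.9 and 21.5 TPM against 47.96 to 79.8 TPM with a median of 70.9 (log2 fold change -1.12, limma adjusted p = 0.256). CTPS1, which makes CTP for nucleic acid synthesis, was at 10.9, 16.6 and 7.8 TPM against 17.4 to 30.9 TPM with a median of 20.9 (log2 fold change -0.92, limma adjusted p = 0.48). DOT1L, a histone H3 methyltransferase of transcribed genes, was at 14.8, 28.3 and 14.3 TPM against 30.8 to 60.4 TPM with a median of 40.4 (log2 fold change -1.13, limma adjusted p = 0.34). Every heart without NRP was below every NRP heart in these 3 genes.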
